A study of Homo sapiens with 6 samples.

Results

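A set of 10 receptor tyrosine kinase genes outside the EGF receptor family were followed in cells labelled as a breast cancer line after silencing of RNF31. They are AXL, MET, PDGFRA, PDGFRB, FGFR1, EPHA2, IGF1R, INSR, DDR1 and DDR2, found by gene symbol. The set was drawn up with earlier results of these data known. All 10 were found among the 17645 genes listed for each library. The cultured cells carried the label MDA-MB-231, a cell line long used as a model of triple negative breast cancer. One group was transfected with a control siRNA (siControl) and the other with siRNA against RNF31 (siRNF31), both were harvested after 48 h, and each held 3 libraries. RNF31, also called HOIP, is the ubiquitin ligase that builds linear ubiquitin chains, and the series asks about its function in this cancer. Silencing was transient and partial, in a single line, and it is not stated whether the replicates were separate cultures. The p-values below therefore rest on the variation among these 6 libraries, and that variation may be technical only.

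Receptor tyrosine kinases span the plasma membrane. A ligand bound outside brings receptor chains together, the kinase domains inside phosphorylate each other on tyrosine, and docking proteins gather on the phosphotyrosines to start RAS, PI3K and phospholipase C signalling. The signal ends through phosphatases, through ubiquitin ligases that send the receptor to the lysosome, and through proteases that cut off the outer part. In breast cancer lines of the basal, mesenchymal type, AXL, MET and EPHA2 are known as abundant receptors linked to movement and invasion, and PDGFRA and PDGFRB are better known from fibroblasts and pericytes.

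Values were deposited as FPKM, which divide a gene's fragments by its length and by the size of the library, so levels of different genes can be compared per length. Depth cannot be read from FPKM, and no counting interval is given. RNF31 itself fell in siRNF31 to 18.1% of its siControl mean, from 10.9 ± 0.412 to 1.97 ± 0.136 FPKM (SD, n = 3 each). Libraries correlated at 0.993 to 0.998 within groups and at 0.941 to 0.949 between groups (Pearson, across genes). All 8 markers listed for the labelled line, among them VIM, CD44 and CAV1, were at 1 FPKM or more in every library. Of these 8, 6 were at 15 FPKM or more in every library. AXL, 1 of the 10 receptors, is on this list too. By the test described below, 4 of the 8 were called lower in siRNF31 (CD44, SPARC, TWIST1 and LOXL2) and 1 higher (ZEB1). Whether this list tells the labelled line from fibroblasts was not tested. Of 10 epithelial and luminal markers, 6 stayed below 1 FPKM, among them EPCAM, CDH1 and KRT19 at no more than 0.2, and ESR1 did not exceed 1.33. The other 3 were at 1 FPKM or more in every library: KRT18 at 157 to 178 in siControl and 86.7 to 97.7 in siRNF31, KRT8 at 9.66 to 11.2 and ERBB2 at 6.84 to 8.47. Markers of fibroblasts and pericytes were high in both groups. Of the 10 listed, 8 were at 15 FPKM or more in every library, with COL1A2 at 664 mean FPKM in siControl and LUM at 117, and RGS5 stayed below 1. The identity of the line was not checked from sequence, and the cells are called by their label only. Of the 7 leukocyte and endothelial markers in the tables, 5 stayed below 1 FPKM, CDH5 among them at no more than 0.01. The other 2 were CD68, at 33.2 to 44.4 FPKM, and PECAM1, at 1.49 mean FPKM in siControl and 0.573 in siRNF31.

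In siRNF31, MET, DDR1, PDGFRB and PDGFRA fell by 2-fold or more, IGF1R rose by 3.03-fold, DDR2 rose by 1.63-fold, and EPHA2 and FGFR1 fell by less than 1.3-fold. AXL, the most abundant of the 10, did not pass the test, and INSR was listed near 0. A gene was tested when it reached 1 FPKM in at least 3 of the 6 libraries. The 9 tested receptors were above 1 FPKM in every library of both groups. The test was limma on log2(FPKM + 1), with Benjamini-Hochberg adjustment over the 11346 genes that entered it, and calls were made where the adjusted p was below 0.05. By this rule 2 of the 9 were higher and 6 lower. Among all tested genes 26.6% were called higher and 36.5% lower, together 63.1%, so being called is common in this comparison. Called with a change of at least 2-fold were 5 of the 9, 1 upward and 4 downward, where all tested genes gave 7.84%, of which 3.53% upward and 4.31% downward. This 2-fold line is on the log2(FPKM + 1) scale, which understates changes of low genes. With a pseudocount of 0.1 the receptors stayed at 5. All tested genes then gave 573 upward and 732 downward, in place of 401 and 489. The receptors were also chosen with earlier results known. The values of siControl and siRNF31 did not overlap for any of the 9, as for 67.2% of all tested genes. Their median log2 fold change was -0.27, beside -0.06 over all tested genes.

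**Figure D1:**
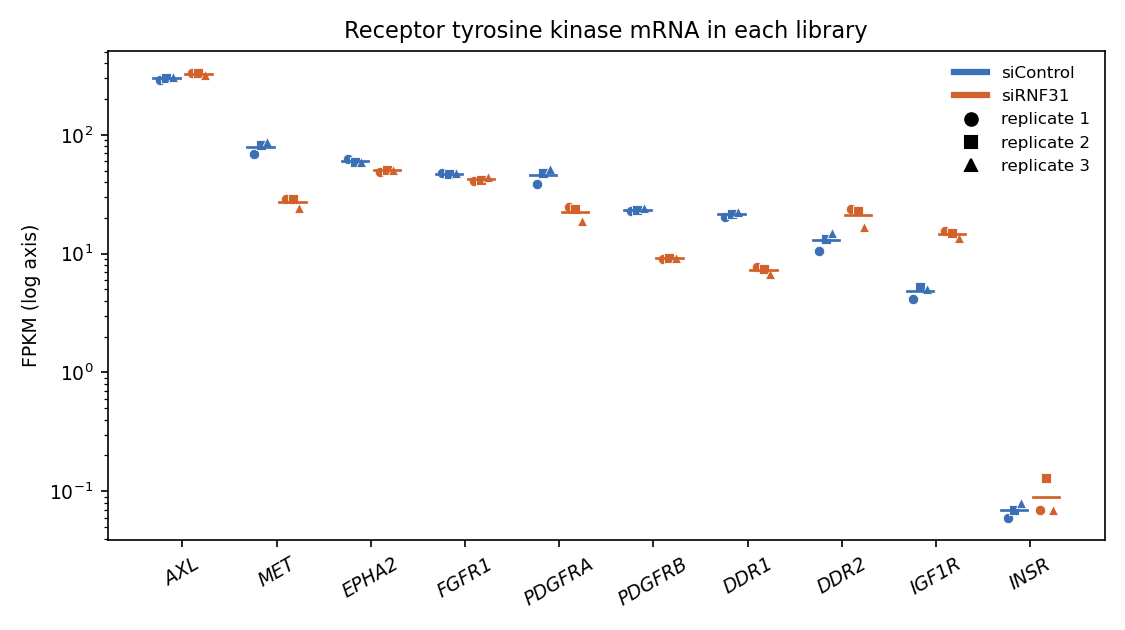
FPKM of each receptor gene (log axis) in every library, ordered by the siControl mean, with siControl in blue, siRNF31 in orange, a marker shape for each replicate number and a bar at each group mean. AXL stays near 300 in both groups, MET, PDGFRA, PDGFRB and DDR1 sit lower in siRNF31, IGF1R and DDR2 sit higher, and INSR is below 0.2 throughout.

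**Figure D2:**
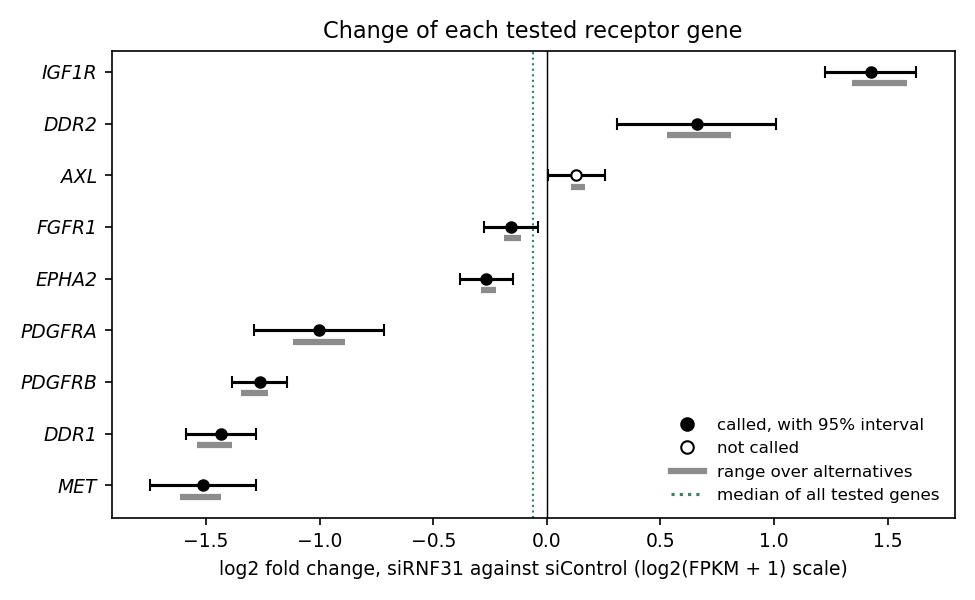
Log2 fold change of the 9 tested receptor genes with its 95% interval (limma), and beneath each the range over 13 alternative settings as a grey bar. Filled points were called, the open point (AXL) was not, and the dotted line marks the median of all tested genes at -0.06.

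AXL is the receptor of the TAM family that binds GAS6. It measured 292, 299 and 305 FPKM in the siControl libraries and 331, 328 and 320 in siRNF31. Each siRNF31 library lay above each siControl library, by a small margin. The mean went from 299 ± 6.82 to 327 ± 5.57 FPKM (SD, n = 3 each), a log2 fold change of 0.13 with a standard error of 0.0545 and a 95% interval from 0.004 to 0.25 (limma, adjusted p = 0.068). The call depended on scaling: with median of ratios scaling AXL passed (0.17, adjusted p = 0.028). GAS6, its ligand, fell by 0.21 on the log2 scale, from 35.1 ± 2.02 to 30.3 ± 1.71 FPKM (adjusted p = 0.021 by limma). PROS1, protein S, the ligand better known for TYRO3 and MERTK, fell from 3.34 ± 0.180 to 1.65 ± 0.194 FPKM (-0.71, adjusted p = 7.61e-05). Of the other TAM receptors, TYRO3 rose from 4.03 to 5.08 mean FPKM and MERTK stayed below 0.4 in every library.

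MET, the receptor of hepatocyte growth factor, had the largest fall among the 10 on the log2(FPKM + 1) scale. The siControl libraries held 68.6, 82.6 and 87.8 FPKM of MET, and the siRNF31 libraries held 28.8, 28.6 and 24.2. The lowest siControl library was still more than 2-fold above the highest siRNF31 library. The mean fell from 79.7 ± 9.89 to 27.2 ± 2.57 FPKM, to 34.1% of siControl (log2 fold change -1.51, standard error 0.102, limma adjusted p = 4.28e-06). HGF, the ligand of MET, was at no more than 0.37 FPKM in any library. ST14, HGFAC, SPINT1 and SPINT2, which activate the HGF precursor or inhibit its activators, were all at no more than 0.18 FPKM. The receptor was thus abundant where mRNA of its ligand was listed near 0, in both groups.

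PDGFRA and PDGFRB, the receptors of platelet-derived growth factors, both fell. PDGFRA measured 38.9, 47.5 and 51.6 FPKM in siControl and 24.8, 23.7 and 18.8 in siRNF31. Its mean fell from 46.0 ± 6.48 to 22.4 ± 3.19 FPKM (log2 fold change -1.0, standard error 0.125, limma adjusted p = 0.000157). It lies at the 2-fold line: with median of ratios scaling the log2 fold change was -0.96. Exons of PDGFRA share 1533 bases with an annotated read-through locus on the same strand (AC058822.1, GENCODE 29), and how such reads were counted is not given in the sources used here. PDGFRB was tighter, at 22.8, 23.3 and 24.0 FPKM in siControl and 8.94, 9.22 and 9.27 in siRNF31. The gap between the groups was many times the spread within them. Its mean fell from 23.4 ± 0.594 to 9.14 ± 0.178 FPKM (-1.27, standard error 0.0533, adjusted p = 3.44e-07). Of the ligands, PDGFA fell from 21.3 ± 2.11 to 11.9 ± 0.917 FPKM (-0.79, adjusted p = 6.39e-05). PDGFC measured 23.2 ± 0.243 and 21.6 ± 1.98 FPKM and did not pass (adjusted p = 0.23). PDGFB and PDGFD stayed below 0.3 FPKM. Both receptors are on the list of fibroblast and pericyte markers, whose summed level ran from 2278 to 2356 FPKM in siControl and from 1948 to 1977 in siRNF31. Of the 9 tested members of this list 7 were lower (77.8%), beside 36.5% of all tested genes. That share counts the falls of PDGFRA and PDGFRB themselves. The others called lower were COL1A1, DCN, LUM, FAP and THY1. COL3A1 was higher, from 204 to 328 mean FPKM, and COL1A2, at 664 and 704, did not pass. The largest fall in FPKM was that of COL1A1, from 1050 to 668. Without COL1A1, the mean summed level of this fibroblast and pericyte list was not lower in siRNF31. The part of such cells in the receptors' fall was not tested. In a bulk RNA sample, fewer cells of a kind and less RNA per cell cannot be told apart, for these receptors or the others.

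FGFR1 and EPHA2 moved least among the called receptors. FGFR1, a receptor of fibroblast growth factors, measured 47.5, 46.7 and 47.4 FPKM in siControl and 40.9, 41.8 and 44.1 in siRNF31. The groups were apart by less than 3 FPKM at their nearest. The mean went from 47.2 ± 0.443 to 42.3 ± 1.65 FPKM (log2 fold change -0.16, standard error 0.0516, limma adjusted p = 0.027). This call was lost with median of ratios scaling (-0.12, adjusted p = 0.093) and on leaving out any of siControl replicates 2 and 3 and siRNF31 replicates 1 and 2 (range of adjusted p 0.061 to 0.106). FGFR1 exons share 138 bases with LETM2 on the opposite strand. EPHA2, a receptor of the membrane-bound ephrin-A ligands, measured 62.5, 59.4 and 59.5 FPKM in siControl and 49.0, 50.5 and 50.8 in siRNF31. The 3 libraries of each group lay close together and well apart from the other group. Its mean fell from 60.5 ± 1.75 to 50.1 ± 0.941 FPKM (-0.27, standard error 0.0507, adjusted p = 0.0018).

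The ligands of these receptors went in different directions. Among fibroblast growth factors, FGF1 rose from 2.22 ± 0.091 to 4.22 ± 0.144 FPKM (0.70 as log2 fold change; limma, adjusted p = 2.72e-05) and FGF5 from 21.2 ± 1.55 to 32.0 ± 1.99 (0.57, adjusted p = 0.000163). FGF18 was at 0.627 and 1.3 mean FPKM and passed the filter only through siRNF31, so its call is not used. FGF2 measured 19.9 ± 2.44 and 21.4 ± 2.48 FPKM and did not pass (adjusted p = 0.45). FGFRL1, a receptor relative that lacks the kinase domain, fell from 10.1 ± 0.495 to 5.31 ± 0.776 FPKM (-0.81, adjusted p = 0.000106). Among ephrins, EFNA4 fell from 1.54 to 1.03 mean FPKM (limma, adjusted p = 0.030), with overlapping groups. EFNA1 measured 1.34 ± 0.193 and 0.61 ± 0.0755 FPKM and passed the filter only through siControl, so its call is not used either. EFNA5 measured 3.83 and 3.52 mean FPKM and did not pass (adjusted p = 0.28).

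IGF1R, the receptor of insulin-like growth factors, was the 1 tested receptor that rose by more than 2-fold. It measured 4.16, 5.25 and 5.05 FPKM in siControl and 15.4, 14.8 and 13.6 in siRNF31. Even the lowest siRNF31 library was more than 2-fold above the highest siControl library. The mean rose from 4.82 ± 0.580 to 14.6 ± 0.945 FPKM (log2 fold change 1.43, standard error 0.0878, limma adjusted p = 2.58e-06), which placed it at the 73.8th percentile of all listed genes in siRNF31 and the 52.7th in siControl. INSR, the insulin receptor and the closest relative of IGF1R, was listed at 0.06, 0.07 and 0.08 FPKM in siControl and at 0.07, 0.13 and 0.07 in siRNF31. These values overlap, they did not pass the filter, and INSR was not tested. Without the filter its log2 fold change was 0.03 (limma, adjusted p = 0.51). Because the quantification program is not given, a value near 0 says only how the gene was listed.

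On the ligand side of this receptor pair, IGF2 fell from 2.97 ± 0.070 to 1.96 ± 0.0322 FPKM (-0.43 as log2 fold change; limma, adjusted p = 0.000398) and IGF1 stayed at 0.15 or less. The binding proteins that hold insulin-like growth factors outside the cell split. IGFBP3 fell from 140 ± 2.77 to 95.9 ± 3.37 FPKM (-0.54, adjusted p = 3.85e-05), while IGFBP4 rose from 62.8 ± 6.47 to 91.2 ± 9.30 (0.53, adjusted p = 0.0012). IGFBP5 was at 0.66 and 1.13 mean FPKM and passed the filter only through siRNF31. IGFBP7, the most abundant, measured 629 ± 38.2 and 568 ± 36.1 FPKM and did not pass (adjusted p = 0.12). Nor did IGFBP6 or the scavenger receptor IGF2R (15.4 and 14.6 mean FPKM, adjusted p = 0.59). IGFBP1, below the filter, was at 1.16 and 0.47 mean FPKM.

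DDR1 and DDR2, the receptors that bind collagen, moved in opposite directions. DDR1 measured 20.3, 21.5 and 22.3 FPKM in siControl and 7.75, 7.36 and 6.79 in siRNF31. All 3 siRNF31 libraries lay far below the lowest siControl library. The mean fell from 21.4 ± 1.01 to 7.30 ± 0.483 FPKM (log2 fold change -1.43, standard error 0.0672, limma adjusted p = 5.76e-07). DDR2 measured 10.5, 13.3 and 14.9 FPKM in siControl and 23.8, 22.7 and 16.6 in siRNF31. The groups did not overlap, but siRNF31 replicate 3 came close to siControl replicate 3. The mean rose from 12.9 ± 2.26 to 21.0 ± 3.86 FPKM (0.66, standard error 0.153, adjusted p = 0.0052). Expressed as the log2 ratio of DDR1 to DDR2 (on FPKM + 1), the siControl libraries were at 0.89, 0.65 and 0.55 and the siRNF31 libraries at -1.50, -1.50 and -1.18. DDR1 was thus the higher gene in every siControl library and DDR2 in every siRNF31 library. The difference of -2.09 gave an exact two-sided permutation p of 0.10, the smallest that 3 against 3 libraries can reach (adjusted p = 0.15 over 3 pairs).

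Most of the collagen genes listed, whose products include ligands of DDR1, of DDR2 or of both, were abundant. Of the 9, 7 were tested, and COL2A1 and COL10A1 were at no more than 0.07 FPKM in any library. COL1A1 fell from 1050 ± 22.1 to 668 ± 25.9 FPKM (-0.65 as log2 fold change; limma, adjusted p = 3.28e-05), and COL1A2 measured 664 ± 18.8 and 704 ± 10.2 (adjusted p = 0.24). COL3A1 rose from 204 ± 10.6 to 328 ± 12.4 FPKM (0.68), COL4A1 from 106 to 189 (0.83), COL5A1 from 66.8 to 127 (0.92) and COL5A2 from 48.1 to 103 (1.09), all with adjusted p of 3.9e-05 or less. COL4A2 did not pass.

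The order of the receptors by level changed with silencing. In siControl AXL was first, followed by MET, EPHA2, FGFR1, PDGFRA, PDGFRB, DDR1, DDR2, IGF1R and INSR, and FGFR1 and PDGFRA were the only neighbours whose values overlapped. In siRNF31 the order was AXL, EPHA2, FGFR1, MET, PDGFRA, DDR2, IGF1R, PDGFRB, DDR1 and INSR. There MET overlapped PDGFRA and PDGFRA overlapped DDR2. The FPKM of the 10 genes summed to 567, 599 and 618 in siControl and to 531, 527 and 505 in siRNF31. All 3 siRNF31 sums were below all siControl sums. Of this sum AXL held 50.3% ± 1.06 in siControl and 62.7% ± 0.659 in siRNF31, while MET went from 13.4% ± 1.11 to 5.22% ± 0.358. Without AXL the sum was 296 ± 19.0 FPKM in siControl and 194 ± 8.58 in siRNF31. These are descriptions with no test, since the genes of the sum were chosen with earlier results known.

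**Figure D3:**
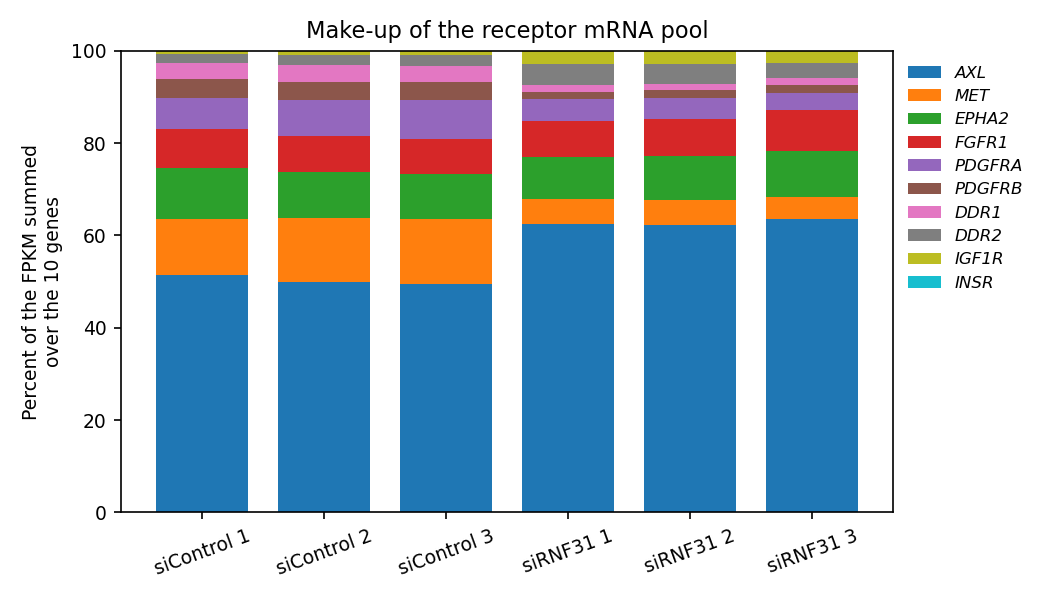
Percent of the FPKM summed over the 10 receptor genes that each gene holds, stacked for each library. AXL takes 49.4% to 51.5% in the siControl libraries and 62.3% to 63.5% in the siRNF31 libraries, and MET, PDGFRB and DDR1 take smaller slices in siRNF31.

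The log2 ratio of AXL to MET (on FPKM + 1) was 2.07, 1.84 and 1.79 in the siControl libraries, against 3.48, 3.48 and 3.67 with RNF31 silenced. The gap of 1.64 was far above the spread within groups, with the smallest exact permutation p the design allows (0.10, adjusted p = 0.15 over 3 pairs). The ratio of PDGFRA to PDGFRB was 0.74, 1.00 and 1.07 in siControl and 1.38, 1.27 and 0.95 in siRNF31. Its values overlapped between the groups (difference 0.26, exact two-sided permutation p = 0.30, adjusted p = 0.30), and with 3 libraries a group no difference could have passed. The overlap came from siRNF31 replicate 3. Among the libraries other than siControl replicate 1 and siRNF31 replicate 3, the siRNF31 ratios lay above the siControl ratios. That choice of libraries was made after seeing the data, and the difference among them was not tested.

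Within each group 1 library stood apart for several of the receptors. In siControl replicate 1 DDR2 was at 0.741 of the mean of the other siControl libraries, PDGFRA at 0.785, MET at 0.806 and IGF1R at 0.808. In siRNF31 replicate 3 the same genes were at 0.715, 0.776, 0.845 and 0.897 of the mean of the other siRNF31 libraries, while PDGFRB, FGFR1 and EPHA2 were within 1.02 to 1.07. Across 11057 genes the position of these libraries went with transcript length, with Spearman correlations of -0.62 for siControl replicate 1 and -0.56 for siRNF31 replicate 3, as a description across genes. The log2 fold change between the groups had a correlation of 0.07 with length. Each group holds 1 such library. Without both, a choice made after seeing the data, DDR2 had a log2 fold change of 0.68, PDGFRA of -1.0, MET of -1.54 and IGF1R of 1.39 (limma, adjusted p of 1.05e-05 or less for each), and AXL passed (0.13, adjusted p = 0.018).

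Among the 48 other human receptor tyrosine kinase genes, 45 were listed and 15 tested, and 29 stayed below 1 FPKM in every library. Of the 15, 6 were higher (40.0%) and 5 lower (33.3%), with a median log2 fold change of 0.08, beside 26.6%, 36.5% and -0.06 over all tested genes. The 6 include FGFR3 and EPHB3, which passed the filter only through siRNF31, and without them 4 of 13 were higher. PTK7, a receptor of Wnt signalling whose kinase is inactive, fell from 46.1 ± 0.542 to 17.3 ± 0.631 FPKM (-1.36, limma adjusted p = 1.99e-07). EPHA5 rose from 1.05 ± 0.0681 to 3.70 ± 0.687 (1.19, adjusted p = 2.2e-05). CSF1R, the receptor of macrophage colony-stimulating factor, fell from 3.13 ± 0.363 to 1.17 ± 0.0819 (-0.92) and EPHB4 from 14.3 ± 0.208 to 8.53 ± 0.876 (-0.69). FGFR3, a relative of FGFR1, was below the level set for naming and is named after its values were seen. It was at 0.23 to 0.30 FPKM in siControl and at 3.32 to 3.87 in siRNF31, given as values with no test because of that filter. EGFR, the EGF receptor, fell from 51.3 ± 7.46 to 38.8 ± 4.97 FPKM (-0.39, adjusted p = 0.021).

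**Figure D4:**
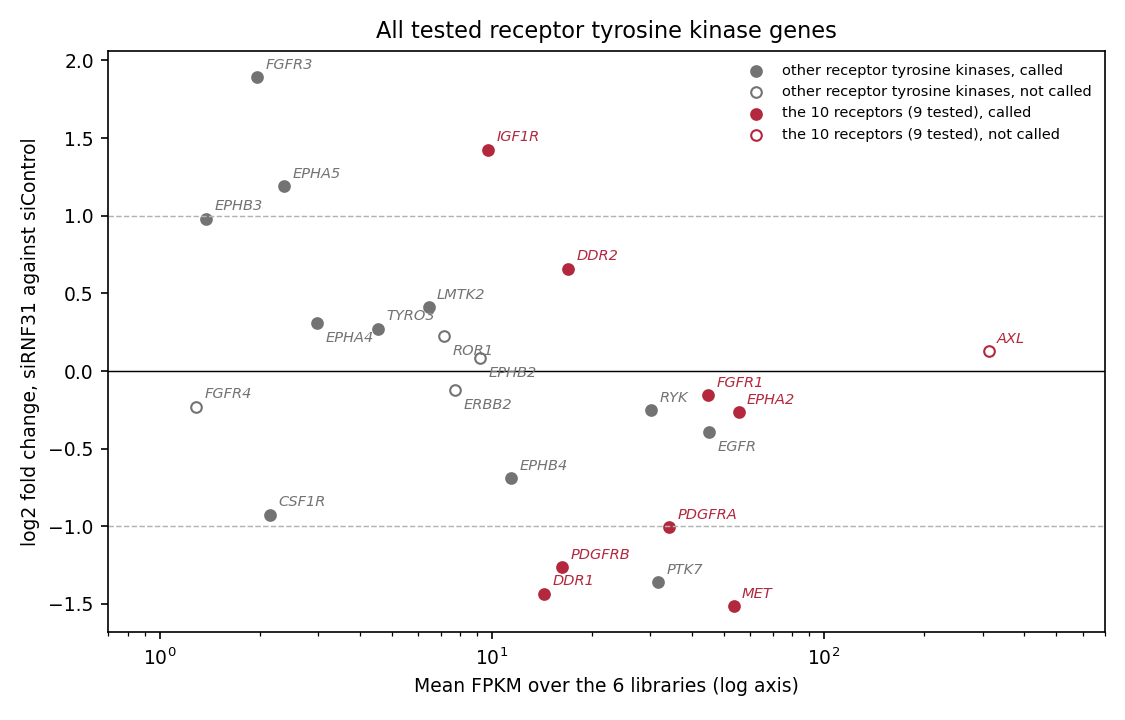
Log2 fold change against mean FPKM (log axis) for the 24 tested receptor tyrosine kinase genes, with the 9 tested receptors of the report in red and 15 others in grey, filled where called. Dashed lines mark a log2 fold change of 1 in each direction. MET, DDR1, PDGFRB, PDGFRA and PTK7 lie at or below the lower one, and IGF1R, EPHA5 and FGFR3 above the upper one. FGFR3 and EPHB3 passed the filter only through siRNF31, so their filled points are not used as calls.

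Docking proteins and adaptors that read the receptors' phosphotyrosines were called in both directions, 8 higher (32.0%) and 7 lower (28.0%) of 25 tested, shares near the 26.6% and 36.5% of all tested genes. Their median log2 fold change was -0.02, beside -0.06 over all tested genes. The 8 called higher include GAB2, which passed the filter only through siRNF31, and without it 7 of 24 were higher. PTPN11, the phosphatase SHP2 that carries receptor signals to RAS, rose from 20.3 ± 2.94 to 50.04 ± 7.45 FPKM (1.26, limma adjusted p = 4.82e-05). GRB10, which binds and restrains the insulin and IGF1 receptors, rose from 19.5 ± 1.23 to 45.2 ± 1.75 (1.17), while its relative GRB14 fell from 5.28 ± 0.892 to 2.12 ± 0.305 (-1.0). SH2B3, the adaptor LNK, fell from 89.6 ± 2.67 to 39.3 ± 0.734 (-1.17, adjusted p = 4.1e-07). The insulin receptor substrate IRS1 rose from 7.36 to 9.58 mean FPKM (adjusted p = 0.018), and IRS2 was listed at 0.08 or less. The common adaptor GRB2 measured 40.6 and 37.5 mean FPKM and did not pass (adjusted p = 0.14).

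A list of genes that limit or mature receptors held ubiquitin ligases, tyrosine phosphatases, SOCS proteins, shedding and processing proteases with their inhibitors, and endocytic adaptors. Of 28 tested, 15 were lower (53.6%) and 4 higher (14.3%), beside 36.5% and 26.6% of all tested genes. The median log2 fold change was -0.26, beside -0.06 over all tested genes. FURIN, the protease that cleaves the precursors of MET, IGF1R and INSR, fell from 35.4 ± 1.23 to 17.2 ± 1.24 FPKM (-1.01, limma adjusted p = 3.16e-06). ADAM10 and ADAM17, which shed the outer parts of AXL and MET among others, fell from 39.7 ± 4.60 to 21.9 ± 2.13 and from 24.4 ± 3.87 to 13.9 ± 1.92. The inhibitor TIMP3, which blocks such proteases, fell from 264 ± 2.34 to 125 ± 3.27 (-1.08). LRIG1, which promotes the degradation of MET and of EGF receptors, fell from 24.6 ± 1.04 to 10.8 ± 0.469 (-1.11). The ubiquitin ligase gene CBLB rose from 7.82 ± 0.749 to 19.9 ± 1.3 (1.24), and ERRFI1, a feedback inhibitor of EGF receptors, from 83.5 ± 3.24 to 177 ± 9.54 (1.07). CBL measured 4.93 ± 1.71 and 4.19 ± 0.928 FPKM and did not pass (adjusted p = 0.53).

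The genes closest to IGF1R and to MET were sought by the distance between log2(FPKM + 1) profiles, each centred on its siControl mean, over the 6 libraries. For IGF1R these were ZNF184 (1.47 to 5.65 mean FPKM, distance 0.118), PHLPP1 (0.77 to 3.63, distance 0.133) and STX12 (9.09 to 26.3, distance 0.168). For MET they were ANTXR2 (43.4 to 14.9, distance 0.114), LHFPL2 (16.0 to 5.21, distance 0.130) and MAN1A1 (13.4 to 3.80, distance 0.159). Of these genes, PHLPP1 was below 1 FPKM in every siControl library and passed the filter only through siRNF31. Profiles of 6 libraries in 2 groups carry little beyond the size of the change.

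The promoters of MET, PDGFRB and IGF1R are shown because these genes had large changes and a single annotated start, MET and PDGFRB downward and IGF1R upward. They are RefSeq windows on GRCh38.p14, from 250 bases before to 50 after the start, read 5′ to 3′ on the gene's strand, with GC boxes (GGGCGG on either strand, a motif of Sp1-type factors) in capitals. The windows are chr7:116671946-116672245 on the plus strand for MET, chr5:150155796-150156095 on the minus strand for PDGFRB and chr15:98648289-98648588 on the plus strand for IGF1R. The build of the deposited files is not given in the sources used here, and these positions belong to the RefSeq table alone.
MET: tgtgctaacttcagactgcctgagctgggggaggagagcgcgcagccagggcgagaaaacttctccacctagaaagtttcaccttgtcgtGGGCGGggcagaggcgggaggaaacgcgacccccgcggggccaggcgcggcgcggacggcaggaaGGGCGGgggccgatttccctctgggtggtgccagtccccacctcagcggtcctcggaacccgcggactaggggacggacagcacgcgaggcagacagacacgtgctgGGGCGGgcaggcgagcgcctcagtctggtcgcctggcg
PDGFRB: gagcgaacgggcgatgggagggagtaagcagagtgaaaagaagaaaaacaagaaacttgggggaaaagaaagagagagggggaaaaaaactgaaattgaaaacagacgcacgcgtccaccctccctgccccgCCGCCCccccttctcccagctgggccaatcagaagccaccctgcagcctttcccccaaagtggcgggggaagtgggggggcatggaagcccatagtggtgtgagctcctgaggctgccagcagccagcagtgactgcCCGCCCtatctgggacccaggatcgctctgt
IGF1R: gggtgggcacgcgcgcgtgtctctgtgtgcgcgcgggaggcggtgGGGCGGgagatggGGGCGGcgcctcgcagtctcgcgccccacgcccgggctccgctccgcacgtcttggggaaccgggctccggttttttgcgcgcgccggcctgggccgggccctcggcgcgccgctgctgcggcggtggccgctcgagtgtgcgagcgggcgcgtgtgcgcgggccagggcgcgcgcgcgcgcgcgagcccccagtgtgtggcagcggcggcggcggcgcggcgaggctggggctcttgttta

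GC boxes numbered 3 in the MET window, 2 in PDGFRB and 2 in IGF1R, and 45.0% of all 35116 windows of the same length hold at least 1. The IGF1R window was 79.7% G and C with 55 CpG, the MET window 69.3% with 30 and the PDGFRB window 59.3% with 11, where the median of all windows was 58.7% and 14. None of these windows held TATAAA (11.5% of all), the AP-1 letters TGANTCA (7.71%), the TEAD letters GGAATG (14%) or the ETS letters CCGGAA (17.2%), searched on both strands. Windows were found for 9 of the 10 genes, with 20 starts in all. The 3 windows of DDR2, which rose, had 41.0% to 45.0% G and C and no GC box, and 2 of them held TATAAA. Of the 8 windows of DDR1, which fell, 4 held a GC box. The window of EPHA2, the second of AXL and the second of DDR1 held GGAATG. The AP-1 letters were in window 1 of PDGFRA, window 8 of DDR1 and window 1 of DDR2. Window 2 of AXL and window 5 of DDR1 held the ETS letters. These matches describe letters in fixed windows and say nothing of binding.

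The annotated 3′ UTRs of the receptors were searched for 4 short sequences that also occur in the RNF31 mRNA and were picked earlier on these same fold changes. The first is GCTACAC, the next is CTACACA, then comes AAGTTTA, and the last is TGCTACA. At least 1 of these 4 lies in an annotated 3′ UTR of 31.8% of 11042 tested genes (GENCODE 29). MET, which fell, carries CTACACA (9.51% of genes). IGF1R and DDR2, which rose, and INSR carry AAGTTTA (19.6%), and FGFR1 and DDR2 carry TGCTACA (10.7%). DDR1, PDGFRB, PDGFRA, EPHA2 and AXL carry none of the 4, and none of the 10 carries GCTACAC (5.27%). The annotated 3′ UTRs of IGF1R and DDR2 reach 7088 and 7154 bases, and that of DDR1 860. Whether carrying a sequence goes with a change was not tested, and the siRNA sequences were not used here.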

How the data were processed

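RNA of cells labelled MDA-MB-231 was lysed in Trizol and made into libraries by BGISEQ-500 protocols, per the labels' protocols. The authors deposited FPKM per gene, per the file headers, in 1 table for each of 6 libraries, with 2 decimals. For the aligner, counting program, strand setting, genome build and annotation, no source used here gives a name. Column totals ran from 421755 to 463457 FPKM and are not depths.

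Genes at FPKM of at least 1 in at least 3 libraries (11346 of 17645) were compared as log2(FPKM + 1) with limma 3.58.1 in R 4.3.3 (intensity trend, robust moderation). P-values were adjusted over all tested genes, with calls below 0.05. A fold or percentage is the ratio of mean FPKM. Fold changes on the log2(FPKM + 1) scale understate changes of low genes. The fit was tested on simulated data with independent noise for each gene and library. Deviations that go with transcript length, as in siControl replicate 1 and siRNF31 replicate 3, were not simulated. Ratios between receptors were tested by exact permutation of libraries. Other steps used Python 3.11.15 with pandas 2.3.3 and numpy 2.4.6; scipy 1.17.1 ran the permutations and matplotlib 3.10.9 drew the plots.

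The receptors and gene lists were chosen with earlier results of these data known. The named genes were all 10 receptors, RNF31, up to 4 called genes of each list with the largest change and mean FPKM of at least 2, ligands at mean FPKM of at least 1, and the 3 nearest profiles to the largest rise and fall. Other list members, such as FURIN, ADAM10 and ADAM17, were named after their values were seen.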

Additional observations from a re-analysis of the deposited data

How the results depend on the processing

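In all, 13 alternatives were run: a pseudocount of 0.1, no filter, 2 scalings, a fit lacking the intensity trend, a block for the replicate number, leaving out each library, and leaving out siControl replicate 1 and siRNF31 replicate 3 together (added after seeing the data). MET, PDGFRA, PDGFRB, EPHA2, IGF1R, DDR1 and DDR2 were called in all 13, and no receptor changed direction. AXL passed in 2 of the 13, with median of ratios scaling (0.17) and without both libraries (0.13, adjusted p = 0.018). FGFR1 was called in 7. It was lost with median of ratios scaling (-0.12) and with the replicate block (-0.16, adjusted p = 0.12), and leaving out single libraries moved it from -0.19 to -0.13 (adjusted p from 0.015 to 0.106). The replicate numbers share only a number: same-numbered libraries deviated together with correlations of -0.57, 0.12 and -0.63. The block left 5 receptors lower in place of 6 and 2480 genes higher and 3497 lower in place of 3022 and 4141. With no filter, 11 other receptor tyrosine kinases were called higher and 10 lower, in place of 6 and 5, with more genes tested. All genes then gave 3443 higher and 4285 lower of 17630 tested. The genes that this added to the test had not reached the filter, and values near 0 are held to 2 decimals only. The cause of the other differences was not tested. FPKM give no depth, which limits what can be said of genes near 0 such as INSR.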
